A study of Mus musculus with 12 samples.

Results

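Dkc1 encodes dyskerin, the pseudouridine synthase of the box H/ACA small nucleolar ribonucleoproteins (snoRNPs), and it was examined here with 8 genes of the same nucleolar machinery: Nop10, Nhp2, Gar1, Nop56, Nop58, Fbl, Ncl and Npm1. Dkc1 was chosen by its measured rise in the 18 month hippocampus, so its values in that comparison are a description and carry no test. The other 8 genes were taken as its partners and relatives by function, with earlier results of these data known. All 9 were found by symbol among the 14663 named genes of the hippocampus table and the 29957 of the microglia table, and all 9 passed the filter on low values in both tissues, where 13491 and 10663 genes were tested.

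The samples are 12 RNA-seq libraries from C57BL/6 mice in 4 groups of 3: whole hippocampus at 6 or 18 months of age, and microglia, the resident macrophages of the brain, from the hippocampus at 3 or 24 months. No treatment or engineered allele is named in the labels, which also leave unsaid how microglia were isolated, whether animals were pooled, and whether each library stands for its own mouse. The p-values therefore measure the spread between these samples, which may be technical. The ages differ between the tissues and their tables were scaled separately, so each age comparison stays within its tissue.

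Small nucleolar RNAs guide chemical changes of ribosomal RNA in the nucleolus, where ribosomes are assembled. In the H/ACA class, dyskerin isomerises uridine to pseudouridine and works as a complex with Nop10, Nhp2 and Gar1. The same protein set binds telomerase RNA. In the C/D class, the methyltransferase fibrillarin (Fbl) adds methyl groups to ribose and sits with Nop56, Nop58 and Snu13. Nucleolin (Ncl) and nucleophosmin (Npm1) are abundant nucleolar proteins that handle ribosomal RNA precursors and assembling subunits.

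The 4 H/ACA genes lie on 4 chromosomes, so the promoter sequences are shown for them as the subunits of 1 particle that were compared in the same libraries. RefSeq promoter windows (build GRCm38.p6) matched 7 of the 9 genes. Given here, 5′ to 3′ on the strand of the gene, are the bases before the start site, which reach from position -250 to -1 in Dkc1 (chrX:75095604-75095853, plus strand), Nop10 (chr2:112261676-112261925, plus strand) and Gar1 (chr3:129831397-129831646, minus strand). In Nhp2 (chr11:51619523-51619734, plus strand) they reach from -250 to -39, since annotated exon bases were left out. The Gar1 window reaches down to 129831397, while the Gar1 gene range given below ends at 129831407. The last bases of the Gar1 window therefore lie within that range. Capitals mark matches, on either strand, to 4 motifs: the CCAAT box (CCAAT), the GC box (GGGCGG), an Ets motif (CCGGAAG) and the E box (CACGTG) bound by Myc.
Dkc1: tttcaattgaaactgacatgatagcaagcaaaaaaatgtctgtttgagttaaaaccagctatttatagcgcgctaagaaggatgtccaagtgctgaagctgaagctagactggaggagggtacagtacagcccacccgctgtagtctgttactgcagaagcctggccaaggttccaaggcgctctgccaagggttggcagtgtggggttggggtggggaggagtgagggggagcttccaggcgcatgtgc
Nop10: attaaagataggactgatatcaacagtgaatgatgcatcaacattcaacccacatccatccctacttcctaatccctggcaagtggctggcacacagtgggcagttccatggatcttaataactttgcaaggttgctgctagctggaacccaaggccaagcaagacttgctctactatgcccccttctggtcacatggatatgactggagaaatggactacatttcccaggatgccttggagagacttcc
Nhp2: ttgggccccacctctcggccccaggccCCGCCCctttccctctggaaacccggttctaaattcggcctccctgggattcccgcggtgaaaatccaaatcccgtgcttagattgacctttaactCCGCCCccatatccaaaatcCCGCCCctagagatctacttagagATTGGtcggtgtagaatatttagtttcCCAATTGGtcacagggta
Gar1: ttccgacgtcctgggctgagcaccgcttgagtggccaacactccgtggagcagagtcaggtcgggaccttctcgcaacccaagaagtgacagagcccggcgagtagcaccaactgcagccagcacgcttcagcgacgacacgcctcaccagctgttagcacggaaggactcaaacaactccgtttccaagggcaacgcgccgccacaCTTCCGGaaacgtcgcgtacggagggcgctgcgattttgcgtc

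The 4 windows were not alike in these motifs. Nhp2 held 3 GC boxes and 3 CCAAT boxes, of which those starting at -56 and -53 overlap, and Gar1 held 1 Ets motif at -43. None of the 4 motifs was found in the Dkc1 or Nop10 window, and no E box in any of the 4. Of all 32851 RefSeq promoters, 33.8% held a CCAAT box, 32.7% a GC box, 6.91% the Ets motif and 6.02% an E box in the same 250 bases. In the 212 bases nearest the start site, the shares were 30.4%, 31.5%, 6.45% and 5.45%. Those windows have the length of the Nhp2 window but not its position, which is farther from the start.

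In whole hippocampus, Dkc1 stood higher at 18 months, while the age groups of its 3 H/ACA partners overlapped. The Dkc1 gene (chromosome X, 75095854 to 75109776, GRCm38.p6) holds 1 annotated snoRNA gene. Dkc1 was at 27.0, 20.9 and 33.1 normalized counts in 6 month replicates 1, 2 and 3. In those of 18 months it was at 96.0, 77.0 and 74.1 normalized counts. A normalized count is the authors' read count scaled between libraries. The highest 6 month library lay below the lowest 18 month one by more than either group's spread, with means of 27.0 ± 6.11 and 82.4 ± 11.9 normalized counts (SD, n = 3 each), a ratio of 3.05. On the log2(normalized count + 1) scale, which understates changes of low genes, the difference was 1.59 ± 0.34 (SE), and it lay between 1.42 and 1.74 with any 1 library left out. In bulk tissue, more cells of a type and more RNA per cell cannot be told apart.

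Nop10, the small protein that docks on dyskerin's catalytic domain (chromosome 2, 112261926 to 112262898), was at 92.5, 89.0 and 95.4 normalized counts at 6 months and at 51.9, 87.4 and 92.7 at 18 months. Only 18 month replicate 1 was low, and that is the library with the most Dkc1. The log2 difference of Nop10 was -0.30 ± 0.28 (SE; limma, adjusted p = 0.927). Nhp2, an RNA-binding subunit (chromosome 11, 51619773 to 51623718), was at 54.0, 59.2 and 53.9 normalized counts at 6 months and at 50.4, 67.1 and 61.2 at 18 months. The groups overlapped, and the log2 difference was 0.09 ± 0.30 (SE; limma, adjusted p = 0.979). Gar1, the subunit needed for turnover of the modified RNA (chromosome 3, 129824912 to 129831407), was the scarcest member, at 7.92, 8.07 and 3.45 normalized counts at 6 months and 5.92, 4.81 and 1.34 at 18 months. Its groups overlapped too, with a log2 difference of -0.65 ± 0.88 (SE; limma, adjusted p = 0.947).

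**Figure D1:**
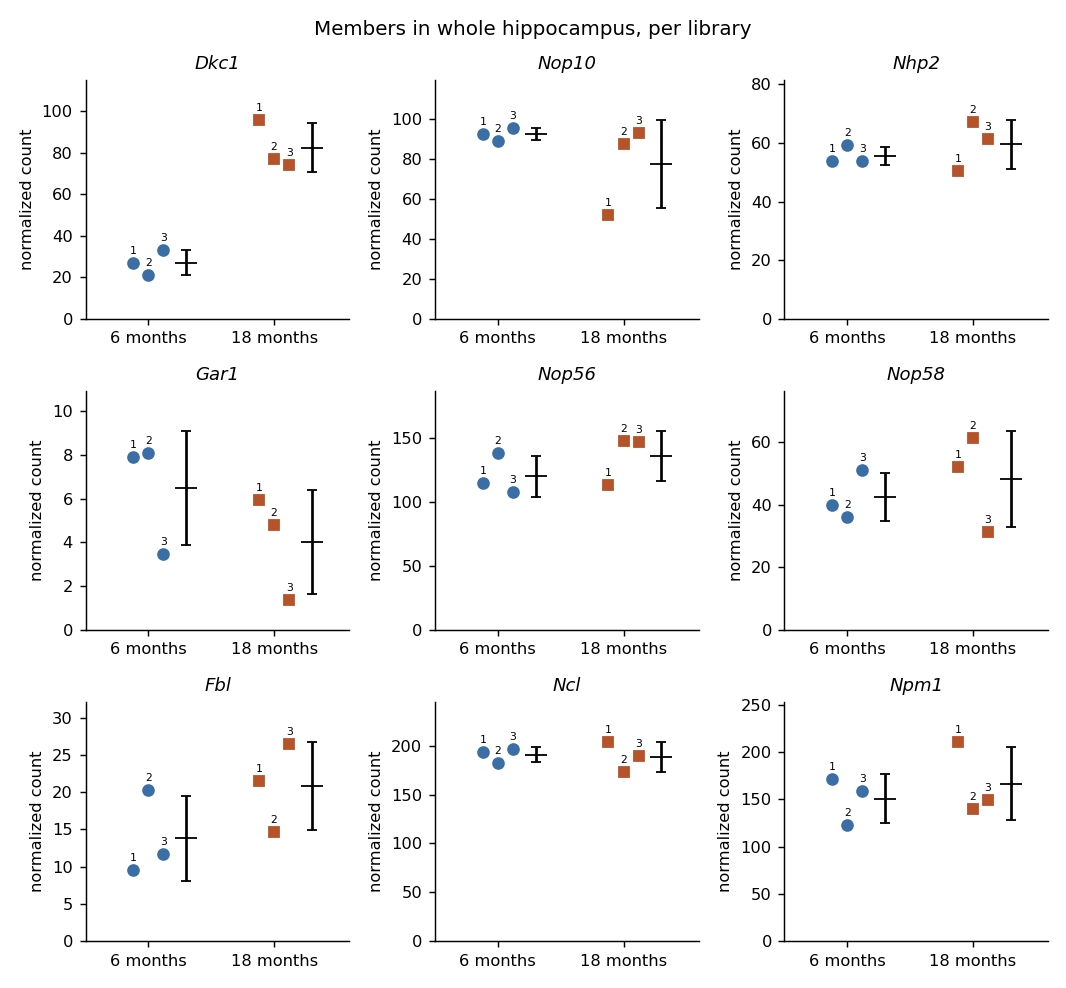
Normalized counts (y axis, from 0) of the 9 members in the 3 libraries of 6 months (circles) and the 3 of 18 months (squares), numbered by replicate, with mean and SD beside them. Dkc1 is the member whose groups lie apart, at 20.9 to 33.1 and 74.1 to 96.0 normalized counts; the groups of the other 8 overlap.

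The balance of H/ACA transcripts within each library is given by ratios. The ratio of Dkc1 to Nhp2 normalized counts, which is not corrected for gene length, was 0.501, 0.352 and 0.614 at 6 months and 1.90, 1.15 and 1.21 at 18 months. The ratio to Nop10 was 0.292, 0.234 and 0.347 at 6 months and 1.85, 0.881 and 0.799 at 18 months. Both ratios carry the value for which Dkc1 was chosen and are given as a description.

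Among the C/D proteins in hippocampus, the age groups of Nop56, Nop58 and Fbl overlapped, and those of Snu13 lay apart without passing the test. Nop56 (chromosome 2, 130274367 to 130279313), a scaffold of the C/D particle whose gene holds 5 annotated snoRNA genes, was at 114.5, 138.2 and 107.6 normalized counts at 6 months and at 112.9, 147.4 and 147.0 at 18 months. Its log2 difference was 0.17 ± 0.22 (SE; limma, adjusted p = 0.943), with overlapping groups. Its paralog Nop58 (chromosome 1, 59684961 to 59711510; 4 snoRNA genes inside) ranged from 36.2 to 51.0 normalized counts at 6 months and from 31.2 to 61.3 at 18 months, so the older libraries enclosed the younger ones (log2 difference 0.14 ± 0.37, SE; limma, adjusted p = 0.971). Fbl (chromosome 7, 28168893 to 28179269) was at 9.54, 20.3 and 11.6 normalized counts at 6 months and at 21.5, 14.7 and 26.5 at 18 months. Its mean was higher at 18 months, but the groups overlapped and the difference of 0.59 on the log2 scale was smaller than its SE of 0.61 (limma, adjusted p = 0.929). Snu13, the fourth C/D protein and no member of the set (listed under its older symbol Nhp2l1), was at 252.9, 254.6 and 237.7 normalized counts at 6 months and at 234.6, 86.7 and 223.6 at 18 months. All older libraries lay below the younger ones, and the low value of 18 month replicate 2 made most of its log2 difference of -0.58 ± 0.30 (SE; limma, adjusted p = 0.909), which was -0.12 without that library.

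Of the abundant nucleolar proteins, Ncl had nearly equal means at both ages and Npm1 varied more between libraries. Ncl (chromosome 1, 86344719 to 86359455; 2 snoRNA genes inside) was at 193.5, 181.9 and 196.5 normalized counts at 6 months and at 203.8, 173.2 and 189.5 at 18 months (log2 difference -0.02 ± 0.18, SE; limma, adjusted p = 0.994). Npm1 (chromosome 11, 33152498 to 33164142) was at 171.7, 122.5 and 158.5 normalized counts at 6 months and at 211.0, 139.7 and 149.7 at 18 months (0.13 ± 0.23, SE; limma, adjusted p = 0.954). In both genes the age groups overlapped. Npm1 has processed pseudogenes, so the assignment of its reads is uncertain.

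Of the 8 hippocampus members open to a test, 0 passed, 5 had a higher and 3 a lower mean at 18 months, and their median log2 difference was 0.11 against -0.04 over all genes tested. The background is as empty: limma called 0 of 13491 genes (0%) at an adjusted p under 0.05, with 725 genes at an unadjusted p under 0.05. The authors' deposited table called 36 of 11818 genes (0.305%), and none of these 8 is among them. In 0 of the 8 did the age groups separate, where the 18 month libraries all lay above those of 6 months in 5.03% of all genes tested and below in 5.93%.

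Summed levels of some cell type marker lists also differed between the ages in these hippocampus libraries. Microglia markers (10 of 10 measured) summed to 593.9 to 720.7 normalized counts at 6 months and 745.1 to 837.8 at 18 months. Neuron markers (10 of 10) summed to 13420 to 15050 and 15580 to 15680 normalized counts, and erythroid markers (5 of 5) to 39.3 to 57.5 and 103.6 to 324.0. Oligodendrocyte precursor markers (6 of 6) went the other way, from 233.0 to 268.1 normalized counts at 6 months to 193.8 to 225.1 at 18 months. No marker of these lists was at 0 in all libraries. Choroid plexus markers (8 of 8) varied within each age, from 381.5 to 9156 and from 671.6 to 13020 normalized counts. The age groups overlapped for the sums of astrocyte, oligodendrocyte, endothelium, mural, fibroblast, neutrophil and monocyte, and proliferation markers. The part of any of these marker sums in the Dkc1 difference was not tested.

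The genes whose hippocampus pattern was most like that of Dkc1 were ranked by Pearson r over the 6 libraries, on log2(normalized count + 1), among 6745 genes in the upper part of expression. The first 5 were Ctss, a lysosomal protease of microglia and other phagocytes (r = 0.990), Grb14, an adaptor of the insulin receptor (0.986), Dip2c (0.981), the zinc finger gene Zfp239 (0.978) and Lsm7, a subunit of the ring that binds U6 RNA (0.978). With only 6 libraries in age groups that lie apart, 76 genes reached an r of 0.9 or more. Dkc1 had the widest difference of these 6 genes. It was chosen for its rise and the other 5 for their r with it, so this order follows from the choice. Ctss went from 95.5 to 119.8 normalized counts at 6 months to 159.6 to 166.6 at 18 months (log2 difference 0.59). Dip2c went from 29.4 to 33.8 normalized counts at 6 months to 54.3 to 67.2 at 18 months (0.92).

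The genes beside Dkc1 on chromosome X, Mpp1 and Gab3, had differences of opposite sign, and the age groups of both overlapped. Mpp1, a membrane scaffold gene whose annotated end overlaps that of Dkc1 by 44 bases, was at 96.5, 47.5 and 69.6 normalized counts at 6 months and at 51.7, 62.9 and 43.4 at 18 months. Its log2 difference was -0.39 ± 0.33 (SE; limma, adjusted p = 0.923), of the other sign than that of Dkc1, and the difference between the genes was not tested. The labels name no kit that keeps strand, so reads from the shared bases cannot be assigned to one gene. Gab3, an adaptor gene on the other side, was at 10.9, 0 and 6.34 normalized counts at 6 months and at 22.9, 6.49 and 9.85 at 18 months. Its log2 difference had the sign of that of Dkc1 and a larger error, at 1.49 ± 1.01 (SE), with an adjusted p of 0.913 in limma. The size was not steady for this scarce gene, with 6 month replicate 2 at 0. It ran from 0.42 to 2.2 with 1 library left out and was 1.03 in the authors' deposited table.

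In microglia, Dkc1 varied among libraries of the same age. Ncl was the 1 of the 9 members whose age groups lay apart, with the old libraries above. Of all genes tested, 7.26% separated upward and 6.18% downward, and the difference between tissues was not tested. Levels are given as CPM (counts scaled to a common library size), from libraries of 8067905 to 14217018 estimated counts, and as the authors' TPM (transcripts scaled to a common total), which also allow for length. Microglia markers summed to 75430 to 79860 CPM at 3 months and 56020 to 73240 CPM at 24 months, while neuron markers summed to at most 117.9 CPM in any library, with Tubb3 and Slc17a7 at 0. Libraries did not group cleanly by age. Over all genes tested, 24 month replicate 3 correlated with 3 month replicates 2 and 3 at r = 0.876 and 0.878. With the other 24 month libraries its r was 0.745 and 0.833. The 3 month replicate 1 correlated with 3 month replicates 2 and 3 at r = 0.74 and 0.749. It also had the fewest genes with a value among the microglia libraries (11789).

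Ncl was at 81.4, 87.0 and 87.1 CPM in the 3 month libraries and at 253.5, 218.1 and 106.1 CPM in those of 24 months. The young libraries were nearly equal and every old one lay above them, with 24 month replicate 3 nearest. Means were 85.2 ± 3.24 and 192.6 ± 76.9 CPM (SD, n = 3 each), and the log2 difference was 1.18 ± 0.34 (SE), which edgeR's quasi-likelihood test did not call (adjusted p = 0.629). In TPM the separation was wider, from 30.1, 31.4 and 30.3 to 102.3, 86.6 and 46.2, and the deposited length of Ncl, by which TPM divides, was shorter in each old library (3223 to 3474 bases) than in each young one (3671 to 4223 bases). The authors' deposited table gives Ncl a log2 difference of 1.38 ± 0.41 (SE) with an adjusted p of 0.0424. With length offsets in edgeR the difference was 1.39, with an adjusted p of 0.538. Ncl was also nearest to a call without 24 month replicate 3 (1.45, edgeR adjusted p = 0.0824).

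Ncl was highest in the libraries that stood apart in other ways. Neutrophil and monocyte markers (9 of 9 measured) summed to 2393 CPM in 24 month replicate 1 and 50.8 CPM in 24 month replicate 2, against 1.97 to 9.60 CPM in the other 4 libraries. Mural markers (7 measured, Pdgfrb and Kcnj8 at 0) summed to 294.5 and 38.8 CPM in those libraries and to at most 0.873 CPM elsewhere, and proliferation markers (8 of 8) to 363.0 and 138.8 CPM against 59.9 to 75.8 CPM. Astrocyte markers (10 of 10) summed to 130.4 to 266.9 CPM at 3 months and 333.1 to 463.9 CPM at 24 months, and endothelium markers (8 of 8) to 23.5 to 45.5 CPM and 51.9 to 131.1 CPM, so that both lists were higher in all 3 old libraries. Their part in the Ncl difference was not tested.

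Npm1 was at 45.4, 86.0 and 62.0 CPM at 3 months and at 120.0, 114.9 and 82.2 CPM at 24 months. Only 24 month replicate 3 fell below a young library. The log2 difference was 0.71 ± 0.34 (SE; edgeR, adjusted p = 0.952).

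Dkc1 was at 50.0, 29.4 and 22.1 CPM at 3 months and at 59.2, 39.2 and 21.9 CPM at 24 months. Within each age the highest library was more than 2 times the lowest, and the log2 difference was 0.25 ± 0.60 (SE; edgeR, adjusted p = 0.998). In TPM, the order of the libraries changed: 30.1, 45.6 and 25.6 at 3 months and 75.6, 29.8 and 15.5 at 24 months. The deposited lengths, by which TPM divides, were 2258, 872.3 and 1264 bases for Dkc1 at 3 months and 1017, 1816 and 1995 bases at 24 months. GENCODE M21 annotates 12 Dkc1 transcripts of 462 to 2804 bases, of which 3 are protein-coding, and a deposited length is an average over those a library was assigned. The longest over the shortest was 2.59 for Dkc1, a ratio reached by 11.5% of tested genes, whose median was 1.17. The hippocampus table holds no lengths, so the same check was not made for the Dkc1 difference there.

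**Figure D2:**
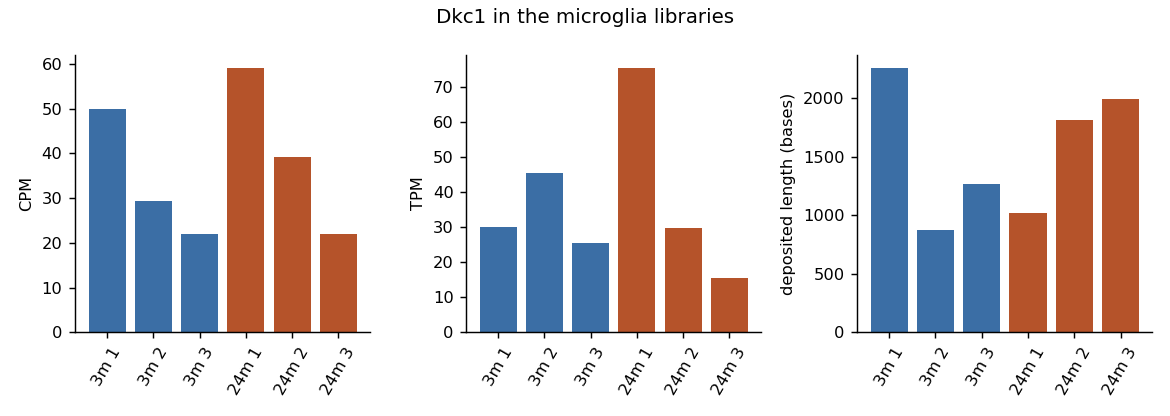
Dkc1 in the 6 microglia libraries (3 of 3 months, then 3 of 24 months) as CPM, as TPM and as deposited transcript length in bases; each bar is 1 library and each axis starts at 0. The 24 month replicate 1 bar is highest in CPM (59.2) and TPM (75.6), and lengths run from 872.3 to 2258 bases.

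The age groups of all 3 H/ACA partners overlapped in microglia. Nop10 was at 18.0, 44.0 and 44.5 CPM at 3 months and at 51.3, 31.0 and 34.6 CPM at 24 months, so that 3 month replicate 1 was low and the rest overlapped (log2 difference 0.13 ± 0.57, SE; edgeR, adjusted p = 0.998). Nhp2 was at 41.6, 31.7 and 29.2 CPM at 3 months and at 31.8, 36.5 and 34.1 CPM at 24 months. Its group means of 34.2 and 34.1 CPM were nearly equal. Gar1 had 77, 11 and 0 estimated counts at 3 months and 0, 41 and 35 at 24 months. A count of 0 allows up to 0.204 CPM in 3 month replicate 3 and 0.318 CPM in 24 month replicate 1 (3 counts, counting error only), so the Gar1 signal came and went between libraries of the same age.

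Among C/D proteins, Nop56 was level and Nop58 was not. Nop56 was at 195.6, 192.8 and 171.1 CPM at 3 months and at 182.4, 189.8 and 205.8 CPM at 24 months, with a log2 difference of 0.05 ± 0.19 (SE; edgeR, adjusted p = 0.998). Nop58 was at 32.2, 19.6 and 20.4 CPM at 3 months and at 9.10, 77.7 and 52.0 CPM at 24 months. The highest 2 values and the lowest one were all from 24 months, and the log2 difference was 0.94 ± 0.79 (SE; edgeR, adjusted p = 0.993). With 24 month replicate 1 left out this became 1.42, and with 24 month replicate 2 left out 0.33. Fbl was at 3.58, 15.8 and 19.95 CPM at 3 months and at 15.7, 16.1 and 22.4 CPM at 24 months. Its log2 difference of 0.46 ± 0.94 (SE; edgeR, adjusted p = 0.998) was 0.01 without 3 month replicate 1, the library in which Fbl, Nop10 and Npm1 were lowest. Snu13 was at 9.78 CPM in that library, 82.9 and 95.6 CPM in the other young ones and 92.2 to 128.3 CPM at 24 months (0.76 ± 0.71, SE; edgeR, adjusted p = 0.993).

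**Figure D3:**
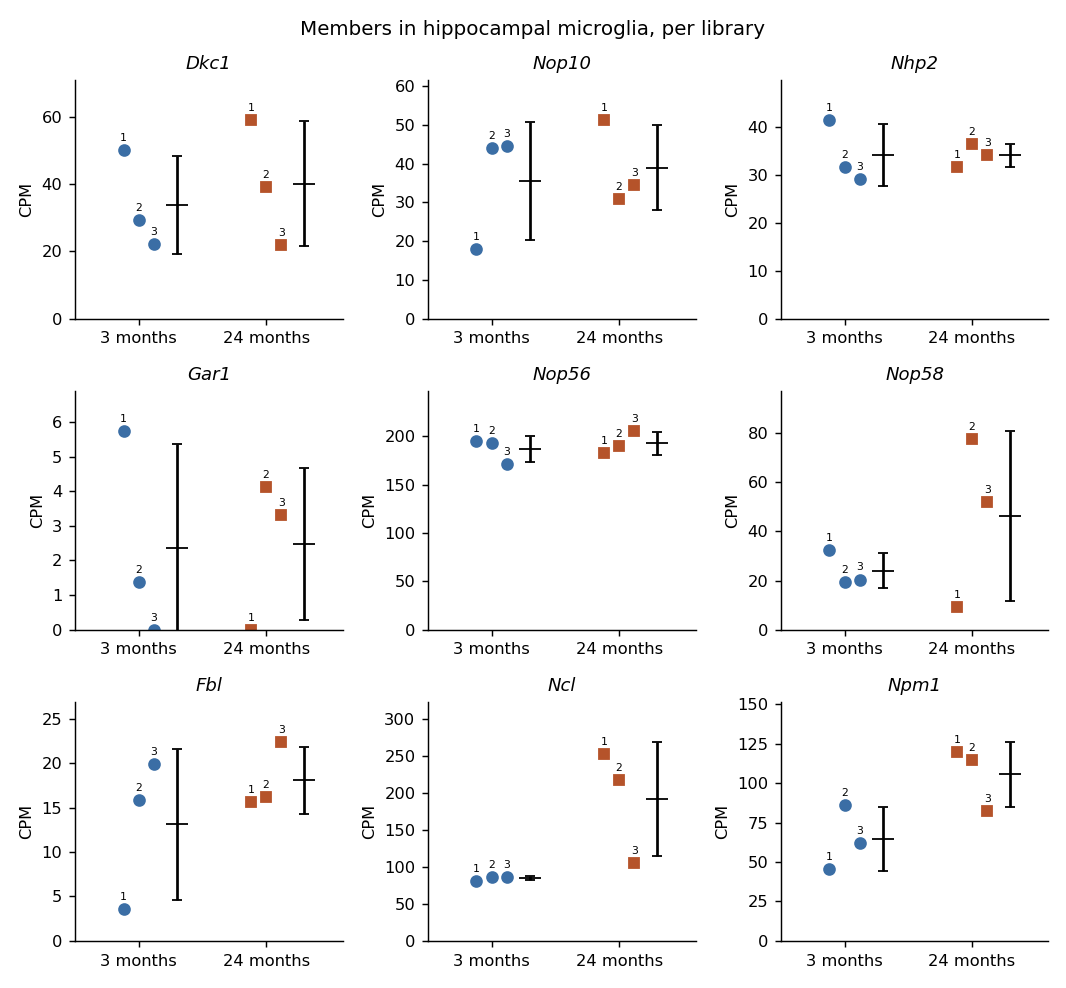
CPM (y axis, from 0) of the 9 members in the 3 libraries of 3 months (circles) and the 3 of 24 months (squares), numbered by replicate, with mean and SD beside them. Ncl is the member whose groups lie apart, at 81.4 to 87.1 and 106.1 to 253.5 CPM; the axis cuts off the lower SD bar of Gar1 at 3 months, which reaches below 0.

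Per length, the members differed widely in level in microglia. Mean TPM over the 6 libraries was highest for Nop56 (179, from 155 to 199), then Npm1 (111, from 57.8 to 157). Nop56 ranked first or second of the 9 in every library. Nhp2, Nop10, Nop58, Ncl and Dkc1 followed, and their ranges over libraries overlapped. At 3 months their means were 55.2 ± 12.3 TPM for Nhp2, 50.6 ± 23.0 for Nop10, 33.8 ± 10.5 for Dkc1, 30.6 ± 0.670 for Ncl and 29.2 ± 3.97 for Nop58 (SD, n = 3). At 24 months they were 78.4 ± 28.9 TPM for Ncl, 58.5 ± 43.6 for Nop58, 54.3 ± 12.7 for Nop10, 53.7 ± 7.23 for Nhp2 and 40.3 ± 31.4 for Dkc1 (SD, n = 3). By these means Ncl lay below Nhp2, Nop10 and Dkc1 at the younger age and above them at the older. Fbl (20.3, from 4.42 to 29.8) and Gar1 (8.48, from 0 to 24.3) were the lowest and ranked between 7 and 9 in every library. The subunits of 1 particle thus did not have equal transcript levels in TPM.

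Of the 9 members, edgeR called 0 in microglia, where it called 0 of 10663 genes (0%), with 590 at an unadjusted p under 0.05; DESeq2 on the same counts called 120 genes higher and 20 lower, Ncl not among them (adjusted p = 0.137). The authors' deposited table called 1 of the 9, Ncl, where it called 243 of 12083 genes (2.01%). The old libraries all lay above the young ones for 1 of the 9, again Ncl, against 7.26% of all genes tested, and below for 0, against 6.18%. The median log2 difference of the 9 was 0.25, and 0.01 over all genes tested.

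**Figure D4:**
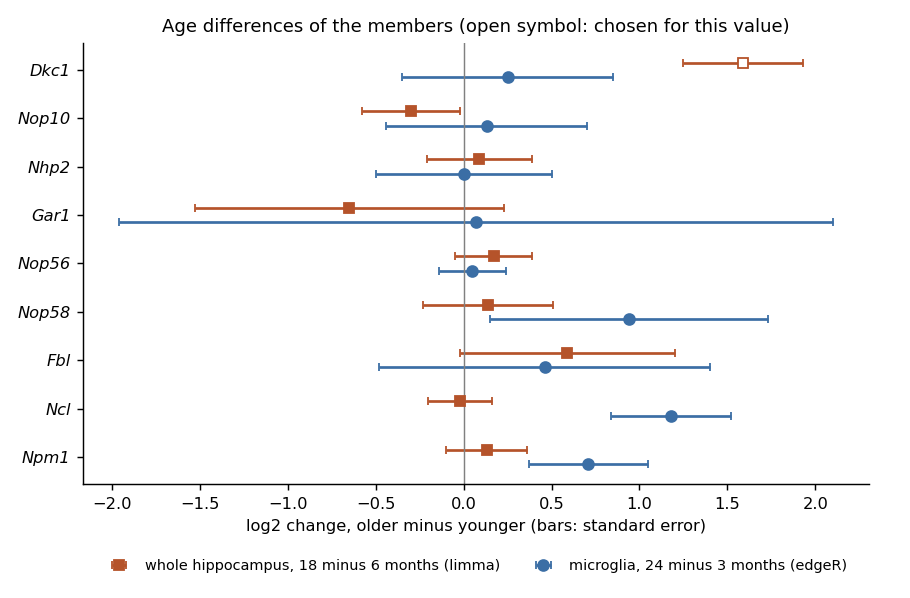
Log2 differences with standard errors (x axis, older minus younger) of the 9 members in whole hippocampus (squares, limma) and microglia (circles, edgeR). The open square is Dkc1 in hippocampus, at 1.59, the value for which it was chosen; Ncl is at -0.02 in hippocampus and 1.18 in microglia.

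The comparisons of the wider pathway used lists of genes by role. Among the 12 genes of snoRNP assembly, 0 of 12 tested passed in hippocampus and 0 of 11 in microglia, with median log2 differences of -0.08 and -0.40. Shq1, the chaperone that holds dyskerin before assembly, was at 17.9, 19.1 and 7.05 normalized counts at 6 months and at 3.77, 6.23 and 4.08 at 18 months in hippocampus, so the older libraries all lay below the younger ones (log2 difference -1.37 ± 0.79, SE; limma, adjusted p = 0.909). Rpap3, a cofactor of the chaperone complex that assembles snoRNPs, separated in the other direction, from 3.62 to 22.3 normalized counts at 6 months to 25.6 to 39.4 at 18 months (1.44 ± 0.66, SE; limma, adjusted p = 0.909). Naf1, which Gar1 replaces on the maturing particle, went from 7.65 ± 5.87 to 4.61 ± 4.49 normalized counts (SD, n = 3 each; -0.86 ± 1.05, SE). The helicases Ruvbl1 and Ruvbl2, of the complex that assembles both particle classes, had differences of 0.02 ± 0.27 and 0.40 ± 0.37 (SE). Nolc1, a nucleolar partner of snoRNPs, was at 0 in 3 of 6 hippocampus libraries (-1.46 ± 1.34, SE), and Tcof1, a nucleolar protein of ribosomal RNA synthesis, had a difference of 0.35 ± 0.74 (SE). In microglia the log2 differences were 1.31 ± 1.12 (SE) for Shq1, 2.21 ± 2.07 for Naf1, -0.52 ± 0.42 for Ruvbl1, 0.27 ± 0.59 for Ruvbl2 and -0.80 ± 0.60 for Tcof1, and Nolc1 was not tested.

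Of 10 telomerase and telomere genes, which include Naf1 of the assembly list, 9 were tested in each tissue and 0 passed. Tert, the reverse transcriptase, had 0 estimated counts in all 6 microglia libraries and was not analysed in hippocampus. Wrap53, which brings H/ACA RNAs to Cajal bodies, was at 15.9, 14.1 and 16.1 normalized counts at 6 months and at 27.9, 20.7 and 0 at 18 months. That single 0 set the sign of its log2 difference of -0.94 ± 1.08 (SE; limma, adjusted p = 0.937), which was 0.61 without 18 month replicate 3. In microglia the Wrap53 difference was 0.12 ± 1.5 (SE).

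Of the pseudouridine synthases that need no guide RNA, 0 of 12 passed in hippocampus (median -0.08) and 0 of 10 in microglia (median -0.18). Pus1, Pus7 and Trub1, which modify mainly transfer RNA and some messenger RNA, had log2 differences of -0.29 ± 0.66, 0.22 ± 0.60 and -0.08 ± 0.49 (SE) in hippocampus. In microglia they had -0.81 ± 0.78, -0.36 ± 0.76 and 0.11 ± 1.02 (SE).

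Genes of ribosome assembly gave small medians. In the small subunit processome, 0 of 38 passed in either tissue (median 0.06 in hippocampus and 0.25 in microglia). Its methyltransferase Emg1 was at 50.1, 50.3 and 41.1 normalized counts at 6 months and at 57.7, 55.1 and 68.3 at 18 months, a separation of 0.35 ± 0.31 (SE) on the log2 scale, while in microglia its difference was -0.48 ± 0.32. The acetyltransferase Nat10 had differences of 0.05 ± 0.60 (SE) in hippocampus and 0.88 ± 0.98 in microglia, and Utp20 of -0.49 ± 0.80 and 1.27 ± 1.35. In the large subunit list, 0 of 36 passed in either tissue (median 0.29 in hippocampus and -0.18 in microglia). Bop1, the methyltransferase Nop2 and nucleostemin (Gnl3) had hippocampus differences of 0.33 ± 0.31, 0.05 ± 0.40 and 0.48 ± 0.61 (SE), and microglia differences of 0.56 ± 0.68, -0.32 ± 0.35 and -0.38 ± 0.89.

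RNA polymerase I, which transcribes the ribosomal RNA precursor, had the lowest list median in hippocampus, -0.52 over 15 genes. Of these, 11 had a lower mean at 18 months and 0 passed, where 7128 of all 13491 genes tested had a lower mean. In 3 of the 15 the old libraries all lay below the young ones (Polr1d, Polr1h and Rrn3) and in 1 above (Ubtf), against 5.93% and 5.03% of all genes. The 3 below did so by narrow margins. Their lowest young and highest old normalized counts were 59.9 and 58.7 for Polr1d, 20.7 and 20.1 for Polr1h, and 98.8 and 98.7 for Rrn3. Ubtf, an activator of ribosomal RNA genes, was at 63.4, 77.9 and 73.4 normalized counts at 6 months and at 105.6, 103.2 and 86.9 at 18 months (0.46 ± 0.25, SE; limma, adjusted p = 0.909). In microglia its difference was -0.82 ± 0.43 (SE; edgeR, adjusted p = 0.967). The large subunits Polr1a and Polr1b had hippocampus differences of -1.65 ± 1.15 and -1.13 ± 0.97 (SE) and microglia differences of 1.47 ± 2.09 and -0.94 ± 0.62. In hippocampus Polr1a was at 17.5, 7.1 and 0 normalized counts at 6 months and at 0, 0 and 3.86 at 18 months. Polr1b stood at 52.5 normalized counts in 6 month replicate 3, and its difference ran from -1.82 to -0.25 with 1 library left out. The microglia median of the list was -0.36, with 0 of 15 past the test.

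Myc, a transcription factor known to drive ribosome genes, was at 4.51, 8.98 and 3.45 normalized counts at 6 months and at 6.57, 21.0 and 10.5 at 18 months (0.99 ± 0.81, SE; limma, adjusted p = 0.918). In microglia it was at 22.2, 23.3 and 81.8 CPM at 3 months and 65.6, 99.9 and 49.5 CPM at 24 months, with overlapping groups (0.75 ± 0.61, SE; edgeR, adjusted p = 0.993). Mycn had a hippocampus difference of -0.06 ± 0.94 (SE) and 0 counts in every microglia library. Of the Myc network list, 0 of 10 tested genes passed in hippocampus and 0 of 9 in microglia.

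**Figure D5:**
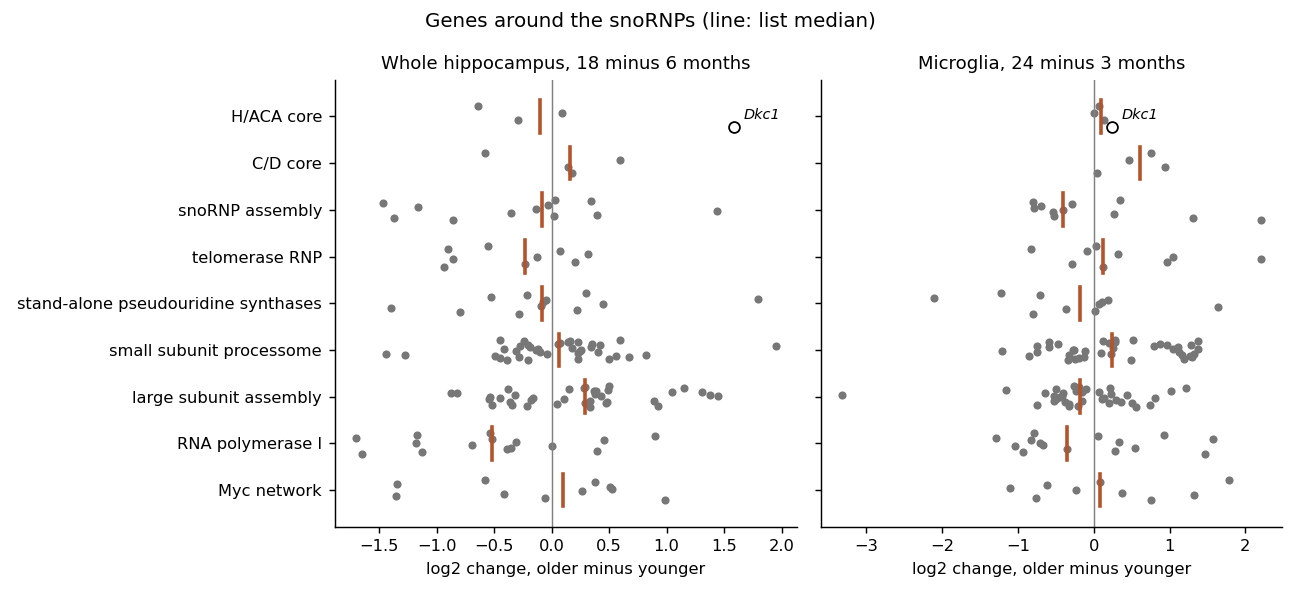
Log2 differences (x axis, older minus younger) of each tested gene (points) and the median (line) of 9 lists, in whole hippocampus (left) and microglia (right), with Dkc1 as an open circle. Dkc1 lies at 1.59 in hippocampus, beyond the other H/ACA genes (-0.65 to 0.09), and at 0.25 in microglia.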

How the data were processed

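The data are 6 whole hippocampus and 6 microglia RNA-seq libraries. Per the labels' protocols, oligo-dT primed cDNA was made with template switching, amplified and tagmented. Tools listed by the submitters' processing notes are kallisto, DESeq2 and DESeq, with no version; the builds listed are mm10 and GRCm39, and which one each file used is not given in the sources used here. For microglia the authors deposited estimated counts, TPM values and transcript lengths per gene (in bases). For each tissue they deposited normalized counts (a signal scaled between libraries), a log2 fold change with its Wald score, and raw and adjusted p-values for each gene. The deposited hippocampus log2 values are 6 over 18 months and were turned round, so that every difference is older minus younger.

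Estimated counts were rounded and tested with edgeR 4.0.16 (quasi-likelihood, TMM, filterByExpr) in R 4.3.3. The hippocampus file has no counts, so limma 3.58.1 with a mean trend was used on log2(normalized count + 1), for genes that reached a normalized count of 1 in 3 or more samples. Its read depth is unknown; columns summed to 974126 to 1002529. P-values are two-sided, with Benjamini-Hochberg adjustment across the genes each comparison tested and calls made under 0.05. Entries without a gene name (0.0233% to 0.0771%) were left out. Alternatives included DESeq2 1.42.0, length offsets, other scalings, pseudocounts and filters, a replicate block and leaving out libraries.

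The members and gene lists were chosen with earlier results of these data known. The text names all 9 members, fixed genes of the lists whatever their result, the 5 genes most like Dkc1 and its neighbours; Gas5 and Snhg1 were not analysed here. Rpap3, Polr1d, Polr1h, Rrn3, and the genes among the other observations, were named after their values were seen.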

Additional observations from a re-analysis of the deposited data

How the results depend on the processing

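In hippocampus Dkc1 kept its sign under all 12 alternatives, at 1.46 to 1.61 with other pseudocounts, filters, scaling or tools. Dkc1 was chosen for this rise in the same libraries, so its kept sign is a description and no support. In microglia Ncl kept its sign under all 13, at 0.92 to 1.45 with 1 library left out and 0.90 without replicate 1 of both ages, and passed only in the authors' deposited comparison, an alternative added after seeing the data. The number of genes called higher and lower in microglia was 0 and 0 with edgeR, 120 and 20 with the DESeq2 Wald test, 186 and 57 in the authors' deposited table, and 0 to 50 and 0 to 5 with libraries left out (50 and 5 without 24 month replicate 3). In hippocampus it was 0 and 0 with limma, 14 and 22 in the authors' deposited table and 0 to 1 and 0 to 0 with libraries left out (1 without 6 month replicate 1). The cause was not tested. Deviations of same-numbered libraries from their group means correlated at r = -0.027 to 0.065 in microglia and 0.009 to 0.014 in hippocampus. Not every library correlated best with its own number. With 3 libraries a group, these r cannot tell whether libraries were paired. With the replicate block, 0 genes were called in each tissue, and no named gene passed; in microglia Nhp2 moved to 0.01, Gar1 from 0.07 to 1.37, Wrap53 from 0.12 to 1.10 and Mpp1 from 0.29 to 1.09.

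Of 31 named genes in microglia and 38 in hippocampus, 18 and 25 kept their sign under every alternative that gave a value. The 25 include Dkc1 and the 5 genes most like it, which were chosen on these hippocampus values. The genes whose sign changed were not called and had the following values. With length offsets the microglia log2 differences were -0.26 for Gar1, 0.02 for Pus7 and -0.14 for Trub1, and in the authors' deposited table -0.32, 0.00 and -0.15. In the authors' deposited hippocampus table Ruvbl1 was at -0.01, Wrap53 at 0.03, Trub1 at 0.05 and Mycn at 0.30, and Mycn was at 0.04 with a pseudocount of 5. Without replicate 1 of both ages, microglia differences were -0.43 for Nop10, 0.22 for Nhp2, -0.59 for Ruvbl2, 0.13 for Tcof1, -0.35 for Wrap53, 0.19 for Pus7, -0.30 for Trub1, -0.02 for Bop1 and -0.38 for Mpp1. With 1 library left out, microglia differences ran from -0.15 to 0.64 for Dkc1, -0.19 to 0.32 for Nop10, -0.12 to 0.16 for Nhp2, -0.55 to 1.87 for Gar1, -0.03 to 0.08 for Nop56, -0.33 to 0.54 for Ruvbl2, -1.25 to -0.21 for Tcof1, -0.46 to 0.54 for Wrap53, -0.70 to 0.00 for Pus7, -0.39 to 0.48 for Trub1, -0.56 to 1.84 for Utp20, -0.01 to 0.98 for Bop1 and -0.30 to 0.72 for Mpp1. Those of hippocampus ran from 0.00 to 0.20 for Nhp2, -0.05 to 0.42 for Nop58, -0.07 to 0.04 for Ncl, -0.05 to 0.25 for Npm1, -1.54 to 0.12 for Naf1, -0.06 to 0.17 for Ruvbl1, -0.06 to 0.90 for Tcof1, -1.81 to 0.61 for Wrap53, -0.14 to 0.54 for Pus7, -0.38 to 0.32 for Trub1, -0.09 to 0.32 for Nat10, -0.09 to 0.26 for Nop2 and -0.84 to 0.63 for Mycn. Nolc1 and Polr1a passed the hippocampus filter in only 3 of the 6 fits that leave out a library. With 3 libraries a group and genes near 10 normalized counts or CPM, such as Gar1, depth limits what can be seen.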

Other observations

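Some ribosome assembly genes outside the snoRNPs had age groups that lay apart in hippocampus. Ddx27, a helicase of the large subunit precursor, was at 19.8 to 23.8 normalized counts at 6 months and 35.7 to 92.1 at 18 months (log2 difference 1.44 ± 0.43, SE; limma, adjusted p = 0.877). Ebna1bp2, an assembly factor of the large subunit, was at 37.0 to 50.7 and 77.0 to 96.9 normalized counts (0.89 ± 0.29, SE; limma, adjusted p = 0.877). Rrp1, a ribosomal RNA processing protein, was at 324 to 339 and 398 to 461 normalized counts (0.38 ± 0.15, SE; limma, adjusted p = 0.877). These were among 5 genes above and 2 below of the 36 large subunit genes, where 5.03% and 5.93% of all genes tested separated in these directions. The 2 below were Gnl3l (256 to 310 normalized counts at 6 months and 165 to 249 at 18 months) and Mrto4 (38.4 to 46.1 and 19.3 to 35.8). Of the 38 small subunit genes, 1 separated above and 0 below.

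Among the genes of all lists, Rpf2 and Max were those with separate age groups in both tissues. Of all genes tested, 5.03% separated upward and 5.93% downward in hippocampus, and 7.26% and 6.18% in microglia. The share of all genes that separated in both tissues was not computed, so no result is drawn from these 2 genes. Rpf2, a factor of 5S ribosomal RNA incorporation, was at 30.4 to 33.5 normalized counts at 6 months and 33.7 to 56.2 at 18 months, and at 9.55 to 18.5 CPM in microglia of 3 months and 23.4 to 37.5 CPM at 24 months. Max, the dimer partner of Myc, was lower at 18 months in hippocampus (5.40 to 8.50 against 9.12 to 11.5 normalized counts) and higher at 24 months in microglia (7.56 to 20.4 against 1.57 to 6.67 CPM). None of these 4 differences passed its test (adjusted p = 0.931 and 0.955 with limma, 0.993 and 0.993 with edgeR), and the difference between tissues was not tested.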
